A study of Rattus norvegicus and synthetic construct with 4 samples.

Results

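Elements in dense neighbourhoods were the tested human islet elements that stood apart from their nearest neighbour but had several further neighbours in the surrounding chromosome. They were chosen by position alone: no other element of the table that pairs barcodes with elements started within 1000 bp, and at least 4 others started between 1000 and 250000 bp away on the same chromosome. The rule held for 466 of the 3378 counted elements, or 13.8%, and is called "dense" here. A further 1936 counted elements were also isolated, with no other start within 1000 bp, but had 0 to 3 neighbours in the same window. The remaining 976 had another element within 1000 bp. The questions were how reporter activity followed the number of neighbours and whether neighbouring elements had like activities.

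CAGE sequences the capped 5′ ends of RNA and so marks the places where transcription starts, at promoters and at active enhancers. Genes and their regulatory elements are unevenly spread along chromosomes, and active start sites often lie in clusters. In STARR-seq a candidate sequence is placed in the transcribed part of a plasmid, so that an element with enhancer activity raises the amount of its own transcript. The plasmid carries each element without its chromosomal neighbours, so the assay reads the element's own sequence and not its native surroundings.

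The library was designed from 7188 CAGE elements of human pancreatic islets, each 198 bp long and made as a 230 bp synthetic oligo. A random tag of 16 bases, the barcode, was put into every plasmid, and several barcodes could belong to an element. The library (10 ug per electroporation) was given to INS1 832/13 cells, a rat insulinoma line that secretes insulin and stands in for islet beta cells. RNA was harvested after 24 h from 3 biological replicates (the RNA group, n = 3). The comparison group was 1 sequenced library of the input plasmid DNA (n = 1), so the DNA side has no spread of its own. All groups share the rat cell line and the synthetic library, no sample was left untransfected, and human elements were assayed in rat cells. The files measure no transcript of the cells themselves, so the line was not checked against its markers. The labels do not say whether the electroporations used separate cultures, so p-values measure the spread between these libraries, which may be technical.

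The count table held 35153 barcodes, with 1079728 plasmid DNA counts and 197554 to 218571 counts per RNA library. The dense elements had 4613 of these barcodes. They took 13.3% of the DNA counts and 14.4%, 14.7% and 14.3% of the RNA counts in replicates 1, 2 and 3 (14.5% ± 0.213, SD, n = 3). A dense element had a median of 6 barcodes, from 2 to 88, and the isolated elements with 0 to 3 neighbours had a median of 7. DNA depth per barcode was close in both sets, with medians of 30.5 and 29.5 counts. Reads came from PCR, so counting error is a lower limit of the real error.

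The dense elements lay on 17 chromosomes, most of them on chromosome 1 (80), 19 (62), 11 (56), 12 (49) and 6 (40). They had 4 to 45 neighbours with a median of 6, and the nearest other start was a median of 29105.5 bp away, between 1091 and 239954 bp. Summed over the dense elements there were 3546 neighbours (1 element can be a neighbour of several), and 80.8% of these were in the count table, which left a median of 5 measured neighbours per dense element. Starting positions are on the human hg19 build and are given from base 1.

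Barcodes are the unit from which each element's activity was summed, and the barcodes of 1 adjacent dense pair on chromosome 7 are shown because this pair gave the lowest p in the pair test described further on. The first 3 lines belong to chr7:129845173-129845370 and the last 3 to chr7:129906599-129906796, each the 3 barcodes with the most plasmid DNA counts of its element. They are random tags written in lower case with no base marked, and they say nothing of the element's own sequence.
chr7:129845173 barcode 1: ttttaagtcgaataca
chr7:129845173 barcode 2: ttaactacaaggaacc
chr7:129845173 barcode 3: cgttgtacgggagcgg
chr7:129906599 barcode 1: caaatgcttgatgcag
chr7:129906599 barcode 2: tactaatcttattata
chr7:129906599 barcode 3: acccgtattgacatag

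The tag ttttaagtcgaataca had 38 DNA counts and 48, 38 and 2 RNA counts in replicates 1 to 3. The tag ttaactacaaggaacc had 31 DNA counts and 17, 2 and 16 RNA counts. The tag cgttgtacgggagcgg had 26 DNA counts and 22, 3 and 0 RNA counts. Single barcodes of the active element thus varied from replicate to replicate, although their DNA counts were close. At the neighbouring element, caaatgcttgatgcag had 86 DNA counts and 4, 0 and 1 RNA counts. The tag tactaatcttattata had 75 DNA counts and 0, 1 and 0 RNA counts. The tag acccgtattgacatag had 69 DNA counts and 27, 4 and 12 RNA counts. The tags shown for the second element had more plasmid DNA, but they were the highest 3 of 52 barcodes, against 3 of 6 at the first. This contrast in DNA therefore depends on how the tags were picked. Barcodes 1 and 2 of the second element had almost no RNA.

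Summed over barcodes, each element's RNA was divided by its plasmid DNA after both were scaled by the library size and edgeR's TMM factors. A ratio of 1 is therefore the centre of the whole library, not the level of an inactive control sequence, and activity below means this ratio. Of the 466 dense elements, 48 (10.3%) were above the centre by edgeR's quasi-likelihood test (threshold 0.05 after Benjamini-Hochberg adjustment), against 8.88% of all 3378 elements. None was below, against 0% of all elements. At an unadjusted p of 0.05 the same test gave 77 dense elements above and 2 below, against 13.5% and 0.77% of all elements. DESeq2's Wald test called 73 above, against 12.4% of all elements, and 0 below. With library totals in place of TMM, 4 dense elements were below. The share of all elements below in that fit is not given here, so this count is not read as particular to dense elements. The reference is then the ratio of the library totals and not the centre. The share above among isolated elements with 0 to 3 neighbours was 198 of 1936 (10.2%), so the dense share lay next to that of other isolated elements. Among elements with another within 1000 bp it was 54 of 976 (5.53%).

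The 48 were above 1 in 3 of 3 RNA libraries. Their fold over the centre ran from 2.51 to 15 with a median of 5.79. Of the 466 dense elements 31 were called and reached 4-fold, and 14 reached 8-fold. Over all 3378 elements these counts were 204 and 65, and over the 1936 isolated elements with 0 to 3 neighbours 137 and 42. Of these 48, 42 had at least 5 barcodes, and the median number was 13. With the barcode of the most RNA counts removed, 48 of 48 still had a mean ratio of at least 2, although in 4 of them 1 barcode had held over 50% of the RNA counts. The count of 48 fell to 29 when only library totals were used in place of TMM, where 5% of all elements were called. It fell to 18 when barcodes with 1 to 4 RNA counts were given 0, where 3.4% of all were. All 29 and all 18 were among the 48.

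Calls rose in frequency with the number of barcodes behind an element. Among dense elements with 2 to 4 barcodes 6 of 162 (3.70%) were above the centre, with 5 to 9 barcodes 13 of 159 (8.18%), with 10 to 19 barcodes 13 of 96 (13.5%) and with 20 or more 16 of 49 (32.7%). In the isolated elements with 0 to 3 neighbours the same shares were 4.17%, 8.69%, 15% and 21.2%. Shares were thus close below 20 barcodes and higher in the dense set above it, where 49 dense elements stood against 264; the difference was not tested.

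The highest dense element among those called with at least 5 barcodes was chr11:65479624-65479821, with 8 neighbours, 5 barcodes and 113 DNA counts. Its RNA counts were 178, 180 and 205, and its RNA/DNA ratios were 13.5, 14.3 and 15.1 (14.3 ± 0.807, SD, n = 3). All 3 libraries lay close together and far above 1, a log2 ratio of 3.83 ± 0.54 (SE; adjusted p = 2.23e-08, edgeR's quasi-likelihood test). The element chr1:28157215-28157412 had 4 neighbours, 8 barcodes, RNA counts of 353, 409 and 385 on 249 DNA counts, and ratios of 12.1, 14.7 and 12.9 (13.2 ± 1.33). It was likewise high in each library, with a log2 ratio of 3.73 ± 0.39 (SE; adjusted p = 1.16e-12, edgeR).

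Of the 12 highest, 3 had more than 20 barcodes. At chr11:118938423-118938620, with 36 barcodes and 1007 DNA counts, RNA counts were 1107, 1062 and 1083 and ratios 9.42, 9.45 and 8.96 (9.27 ± 0.276; log2 ratio 3.21 ± 0.26, SE; adjusted p = 2.53e-17, edgeR). At chr6:33168568-33168765, with 46 barcodes and 11 neighbours, RNA counts were 1217, 1108 and 1164 on 1335 DNA counts, and ratios 7.81, 7.44 and 7.26 (7.50 ± 0.280; adjusted p = 2.77e-16, edgeR). The 27 barcodes of chr16:30773557-30773754 gave 8.35, 7.60 and 6.63 (7.53 ± 0.862). These 3 elements show activity far over the centre spread over many barcodes.

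Others among the 12 highest spread more between libraries. The element chr5:140044353-140044550, with 8 neighbours and 6 barcodes, had ratios of 13.6, 10.0 and 8.33 (10.7 ± 2.69). At chr7:129845173-129845370, with 10 neighbours and 6 barcodes, they were 11.2, 4.39 and 8.38 (7.98 ± 3.40). The 12 barcodes of chr17:27046928-27047125 gave 8.73, 7.30 and 11.4 (9.14 ± 2.08). Each of these was above 4 in each library even so. At chr9:131133540-131133737 the ratio was 9.51 ± 1.60, at chr19:58978356-58978553 it was 8.80 ± 1.18, and at chr14:23235817-23236014 it was 8.38 ± 1.19. The element chr1:32573573-32573770, with 7 barcodes, had the tightest replicates of the 12, at 8.69, 8.76 and 8.51 (8.66 ± 0.128). The highest adjusted p of the 12 in edgeR's quasi-likelihood test was 9.98e-05, at chr7:129845173, whose call was lost with barcodes of 1 to 4 RNA counts given 0 (adjusted p = 0.116, edgeR). The single highest dense ratio was outside the barcode rule and is named for its value: chr16:29985112-29985309 reached 15.1 ± 5.49 on 2 barcodes.

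The lowest dense elements with at least 20 barcodes were not called below the centre under TMM scaling. At chr9:86535610-86535807, with 48 barcodes, RNA counts were 117, 86 and 51 on 1573 DNA counts and ratios 0.637, 0.490 and 0.270 (0.466 ± 0.185; adjusted p = 0.173, edgeR). At chr7:129906599-129906796, with 52 barcodes and 11 neighbours, RNA counts were 115, 62 and 110 on 1752 DNA counts and ratios 0.562, 0.317 and 0.523 (0.467 ± 0.132; adjusted p = 0.129, edgeR). At chr17:26560935-26561132, with 59 barcodes, the ratio was 0.609 ± 0.0850. All 3 libraries of these 3 elements stayed under 1, and whether they were called depended on the scaling. With library totals edgeR's test called each of the 3 below its reference (adjusted p = 0.00144, 0.000503 and 0.0024 in the order given). That reference is the ratio of the library totals and not the centre. With it the log2 ratio of chr17:26560935 moved from -0.72 to -1.45, and that of the high chr11:118938423 from 3.21 to 2.48. The first of the 3 low elements was also called below without RNA replicate 1 (adjusted p = 0.0472, edgeR). The third was also called with barcodes of 1 to 4 RNA counts given 0 (adjusted p = 0.0399, edgeR). The ratio was 0.509 ± 0.167 at chr19:49468480-49468677 and 0.601 ± 0.117 at chr17:73642632-73642829. Replicates of chr12:58138742-58138939, with 29 barcodes, spanned the centre at 0.229, 0.372 and 1.05. In these deep elements the ratio ran from 0.466 to 0.609, a narrower distance from 1 than that of the highest. The cut-offs differ, however, at least 20 barcodes here and at least 5 for the highest. Dense elements with fewer barcodes had lower ratios, such as 0.0881 at chr6:26273071 on 3 barcodes and RNA counts of 1, 0 and 3.

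**Figure D1:**
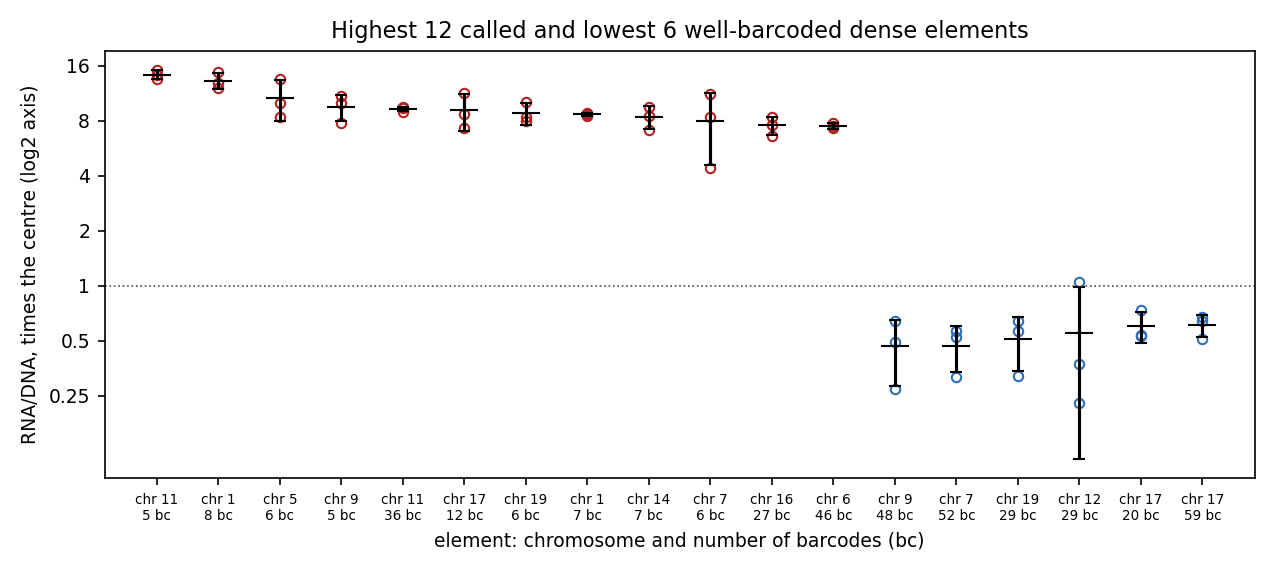
RNA/DNA ratio (log2 axis, relative to the library centre) in each of the 3 RNA libraries for the 12 highest called dense elements with at least 5 barcodes (red) and the 6 lowest with at least 20 barcodes (blue), labelled by chromosome and number of barcodes. The high elements run from a mean of 7.50 to 14.3 and the low ones from 0.466 to 0.609, and no library of a high element reaches down to a low one.

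Over all 466 dense elements the edgeR log2 ratio had a median of 0.15, a fold of 1.11, with 10% of elements under 0.354 and 10% over 4.02. The median over all 3378 elements was -0.03, over isolated elements with 0 to 3 neighbours 0.05, and over elements with another within 1000 bp -0.29. Levels by library were computed on another scale, log2((RNA + 0.5)/(DNA + 0.5)), on which class means are lower than in edgeR's fit. On this scale the dense mean minus the mean of isolated elements with 0 to 3 neighbours was 0.09, 0.09 and 0.05 in replicates 1 to 3. The difference of 0.07 ± 0.02 (SD, n = 3) was positive in 3 of 3 libraries, with an exact two-sided sign-flip permutation p of 0.25, the smallest that 3 libraries can give. It turned to -0.17 when neighbours were counted within 100000 bp, where only 165 elements were dense. The libraries share all elements and 1 plasmid DNA library, so this SD leaves out the spread between elements. By chromosome, the dense mean was above the mean of the other isolated elements on 7 of the 13 chromosomes with 10 or more dense elements. Against elements with another within 1000 bp the dense mean was higher by 0.44 ± 0.05, and against those with 0 neighbours by 0.16 ± 0.03 (exact sign-flip permutation p = 0.25 for each).

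Mean activity did not climb steadily with the number of neighbours. The mean log2 ratio over libraries was -0.15 ± 0.05 (SD, n = 3) in the 781 isolated elements with 0 neighbours and -0.13 ± 0.06 in the 559 with 1. It was 0.10 ± 0.05 in the 596 with 2 to 3 and 0.10 ± 0.07 in the 216 with 4 to 5. In the 142 with 6 to 8 neighbours it was -0.01 ± 0.06, and in the 108 with 9 or more -0.15 ± 0.10. The highest class means thus lay at 2 to 5 neighbours, and the class with the most was back at the level of that with none. Means of the edgeR log2 ratio were 0.08, 0.07, 0.32, 0.28, 0.21 and 0.05 in the same order of classes. Its medians were -0.02, -0.01, 0.25, 0.14, 0.23 and 0.004, so by median the class of 6 to 8 lay above that of 4 to 5. The share above the centre by edgeR moved over a narrow range, with 9.22%, 10.4% and 11.4% in the first 3 classes and 22 of 216 (10.2%), 14 of 142 (9.86%) and 12 of 108 (11.1%) in the dense ones. The SDs over libraries leave out the spread between elements, whose edgeR log2 ratios had an SD of 1.30 to 1.60 within a class. Whether the classes differ was not tested.

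**Figure D2:**
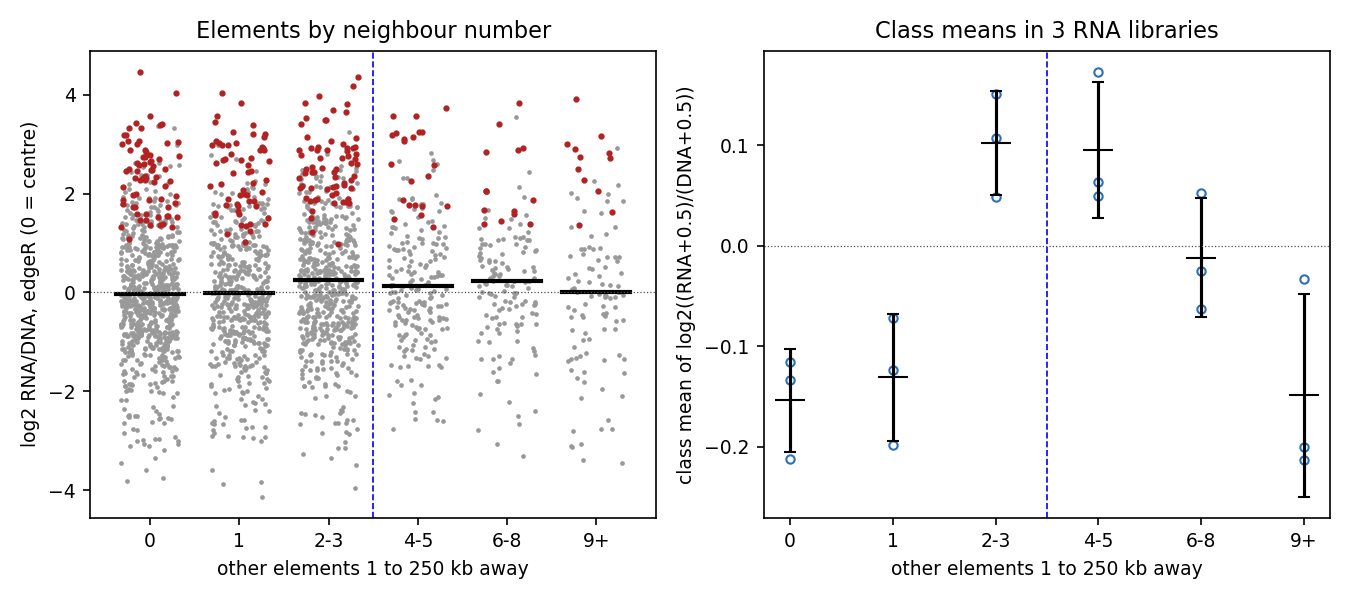
Left, edgeR log2 RNA/DNA of each isolated element by its number of neighbours (red, above the centre; black bar, median; dashed line, boundary at 4 neighbours); right, the class mean log2 RNA/DNA in each RNA library (circles) with mean ± SD over the 3. Class means rise from -0.15 with 0 neighbours to 0.10 with 2 to 5 and return to -0.15 with 9 or more, while the spread within each class is far wider than these shifts.

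Elements just outside the boundary of 4 neighbours were compared with those just inside it. The 230 isolated elements with exactly 3 neighbours had a mean of 0.09 ± 0.10, a median edgeR log2 ratio of 0.25 and 28 calls (12.2%). The 136 with exactly 4 had a mean of 0.03 ± 0.06, a median of 0.04 and 12 calls (8.82%). Values were thus higher just outside the boundary, the opposite direction to the dense minus other isolated difference. In replicate 1 the means ran the other way, at -0.02 with 3 neighbours and -0.01 with 4. This step was not tested.

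A straight line through all 2402 isolated elements gave a slope of 0.05, 0.06 and 0.04 on the log2 scale per doubling of the number of neighbours plus 1 (0.05 ± 0.01, SD, n = 3; exact sign-flip permutation p = 0.25). Among the 466 dense elements alone the slope was -0.29 ± 0.02, the opposite direction, also negative in 3 of 3 libraries. Without the dense elements of chromosome 6 between 25 and 34 Mb, which hold the histone gene cluster and the major histocompatibility complex, the slope over the remaining 432 was -0.09 ± 0.04. Most of the downward slope in the dense set thus came with that region. The rank correlation of neighbour number with the edgeR log2 ratio was 0.0547 over the 2402 isolated elements and -0.0475 over the 466 dense ones; these are descriptions, since the elements share the 4 libraries. Neighbour number and number of barcodes were nearly unrelated in the dense set (rank correlation -0.0220).

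The far end of the scale lay on chromosome 6. The 37 dense elements with 15 or more neighbours, a cut chosen after the values were seen, had a mean of -0.64 ± 0.05 and 2 calls (5.41%). The 9 elements with 40 or more all lay near 26 Mb of chromosome 6 and had a mean of -1.81 ± 0.15 with 0 calls, where an unadjusted p of 0.05 also gave 0. Outside chromosome 6 between 25 and 34 Mb, the 81 elements with 9 or more neighbours had a mean of 0.01 ± 0.13 and 10 calls (12.3%). The low mean of the class of 9 or more therefore did not hold outside that region.

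The 5 elements with 45 neighbours and the next with 42 give the detail. At chr6:26043819-26044016, with 32 barcodes, RNA counts were 119, 100 and 99 and the ratio 0.710 ± 0.0767. At chr6:26197399-26197596, with 10 barcodes, they were 34, 30 and 26 with a ratio of 1.05 ± 0.155. At chr6:26045532-26045729, with 5 barcodes, they were 5, 7 and 10 with a ratio of 0.398 ± 0.128. The deepest element of this group was thus slightly under the centre and the next at it. At chr6:26189229-26189426 RNA counts were 5, 2 and 4 on 222 DNA counts (0.141 ± 0.0566). The 3 barcodes of chr6:26183895-26184092 had 1, 5 and 0 RNA counts, and those of chr6:26273071-26273268 had 1, 0 and 3. None of the 6 was called by edgeR's quasi-likelihood test, and for the last 3 the RNA counts are too few to place the ratio. The 9 elements with 40 or more neighbours had a median of 5 barcodes and 5 RNA counts per library, and the part of low counts in their low mean was not tested.

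The dense elements were also grouped by distance to the nearest other start. Of the 90 with a neighbour under 10 kb away, 8.89% were above the centre, of the 242 at 10 to 50 kb 9.09%, and of the 134 over 50 kb 13.4%. Mean log2 ratios over libraries were -0.19 ± 0.05, 0.05 ± 0.06 and 0.06 ± 0.13 in the same order. The elements with the closest neighbours had the lowest mean. These SDs leave out the spread between elements, and whether the classes differ was not tested. The edgeR log2 ratio had an SD over elements of 1.22, 1.39 and 1.54 in the same order. The elements with 40 or more neighbours, near 26 Mb of chromosome 6, had their nearest start a median of 1713 bp away. Their part in the low mean of the nearest class was not tested.

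Chains of dense elements whose starts followed each other within 250000 bp made 141 loci, of which 95 held 2 or more dense elements (420 in all). No element was called at 104 loci, 1 at 28 and 2 or more at 9. The SD of the edgeR log2 ratio within a locus was 1.37, against 1.40 over these 420 elements, and the intraclass correlation of loci was 0.0389. Elements of 1 locus therefore spread almost as widely as elements of different loci. Of the 33 loci with 5 or more dense elements, 14 had no call, and locus means ran from -1.75 to 1.42.

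The locus with the most dense elements, chromosome 12 from 56109758 to 57039862, held 17 and had 0 calls. Its median log2 ratio was 0.01 and its elements ran from -2.76 to 2.92. The upper end was chr12:56223268-56223465, at 7.61 ± 1.76 on 2 barcodes (adjusted p = 0.0743, edgeR's quasi-likelihood test). A wide range within the locus thus came without a call.

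The locus on chromosome 11 from 64703256 to 65819957 held 12 dense elements and 4 calls, the most of any locus. Besides chr11:65479624, at 14.3, these were chr11:65337870-65338067 with 36 barcodes, chr11:65383170-65383367 with 15 and chr11:65819760-65819957 with 2. Their ratios were 6.46, 6.38 and 6.95 (6.60 ± 0.307), then 7.36, 6.92 and 6.87 (7.05 ± 0.274), then 5.59, 6.68 and 5.72 (6.0 ± 0.597). All 3 were tight between replicates. The last, however, had 73.6% of its RNA counts on 1 of its 2 barcodes and a ratio of 2.36 without it. Its call was lost without RNA replicate 2 or 3 and with library totals (adjusted p = 0.169, 0.0899 and 0.199, edgeR), which leaves 3 calls at this locus. The locus mean was 0.96 ± 0.13 on the log2 scale over libraries, yet 8 of the 12 were not called. One of these, chr11:65188678-65188875, had 85 barcodes and a ratio of 1.64 ± 0.206 (adjusted p = 0.104, edgeR). Another, chr11:65381607-65381804, lay 1563 bp from chr11:65383170 and had 0.828, 1.73 and 0.764 (1.11 ± 0.541). Of this close pair, 1 element was far above the centre and the other was near it.

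Other large loci had 1 or 2 calls among many elements near the centre. On chromosome 1 from 150039780 to 151372166, 2 of 13 were called. These were chr1:150241293-150241490 at 4.53, 3.18 and 3.24 (3.65 ± 0.764) and chr1:151138481-151138678, with 49 barcodes, at 2.60, 3.29 and 3.30 (3.07 ± 0.400). The first call was lost without RNA replicate 2 (adjusted p = 0.0554, edgeR). On chromosome 11 from 62341255 to 62648483, 1 of 13 was called, chr11:62413978-62414175 at 3.55, 6.10 and 7.18 (5.61 ± 1.86). It was not called without RNA replicate 2 or 3 or with library totals (adjusted p = 0.130, 0.092 and 0.0802, edgeR). The other dense elements of both loci were not called by edgeR. On chromosome 1 from 155658800 to 156265551, 1 of 12 was called, chr1:155990613-155990810 at 2.56 ± 0.464 on 64 barcodes (adjusted p = 0.17 with library totals, edgeR). The highest ratio there, 11.8 ± 7.82 at chr1:156163824-156164021, rested on 2 barcodes and was not called (adjusted p = 0.129, edgeR). On chromosome 14 from 23235817 to 24025596, 2 of 10 were called, chr14:23235817 and chr14:23938805-23939002 (11.9 ± 1.13 on 3 barcodes).

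A pair of loci on chromosome 6 had 10 dense elements each and 0 calls. From 26020618 to 26458281, in the histone gene cluster, 9 of the 10 mean ratios were below 1, from 0.0881 to 1.05, and the locus mean was -1.79 ± 0.12 over libraries. From 31515282 to 32143954, in the major histocompatibility complex, the mean was -0.35 ± 0.17. The highest element there, chr6:31926836-31927033, had a ratio of 3.59 ± 1.17 on 7 barcodes but was not called (adjusted p = 0.159, edgeR). The mean of the first locus was the lowest of the 33 loci with 5 or more dense elements, and the highest was at chromosome 19 from 58816651 to 59066503, where 2 of 6 were called.

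**Figure D3:**
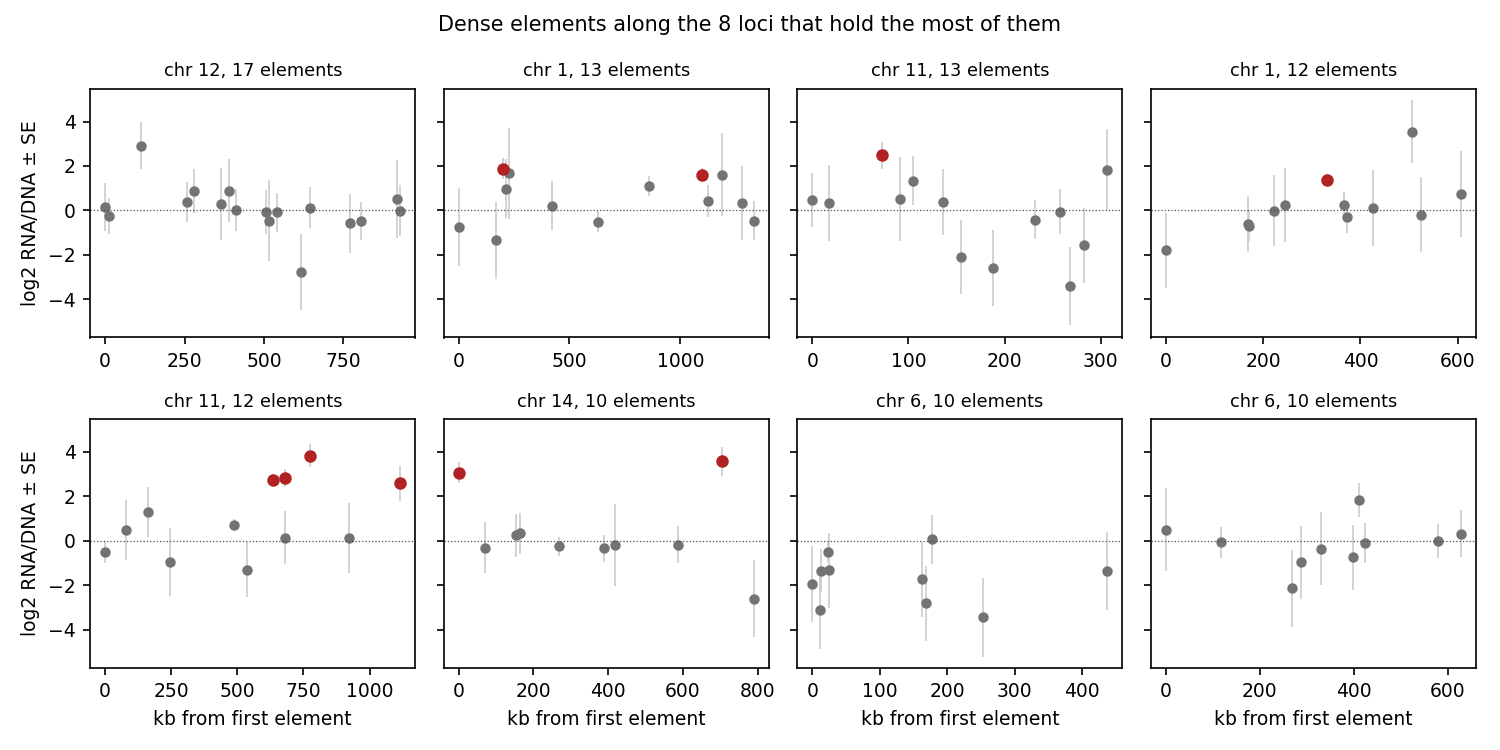
edgeR log2 RNA/DNA ± SE of each dense element against its distance in kb from the first element of the locus, for the 8 loci with the most dense elements (red, above the centre). Called and uncalled elements stand side by side at the chromosome 11 locus with 4 of 12 called, and the chromosome 6 locus near 26 Mb lies under 0 for 9 of its 10 elements.

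Whether neighbours agreed was read from adjacent counted elements whose starts lay 1000 to 250000 bp apart. There were 264 such pairs with both members dense, over 363 elements. The log2 ratios of the members were nearly unrelated over these pairs, with Pearson r 0.0653 and rank correlation 0.0462. With the members taken from different RNA libraries, r was 0.0532 on average (0.00884 to 0.125 over the library pairs), whereas the same elements correlated at 0.560 between libraries. The last value is of ratios that share 1 plasmid DNA library and the same barcodes, which neighbours do not, so it is no like-for-like measure beside theirs. Pairs share the libraries, and an element can sit in 2 pairs; with each element used once, r was 0.173 over 163 pairs. With at least 10 barcodes on both members it was 0.280 over 27 pairs.

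The members of a dense pair differed by a median of 2.23-fold, and 73 of 264 pairs (27.7%) by more than 4-fold. Dense elements of different chromosomes, which are no neighbours, differed by a median of 2.49-fold over their 98002 pairs, with 31.2% beyond 4-fold. The shares within 2-fold were 45.1% and 39.5%. Neighbours were thus a little closer than elements of other chromosomes, a description for which no test was run. In 6 pairs both members were called above the centre, in 49 pairs 1 was (18.6%), and in 209 neither. Among the 952 other adjacent pairs, both were called in 7 and 1 was in 166 (17.4%). Over all 1216 adjacent pairs both were called in 13, and the difference between these sets was not tested.

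Among the 3 distance classes, the nearest pairs were the most alike. The 30 dense pairs under 10 kb had r 0.498 (rank correlation 0.416), and 0.317 with members from different libraries. Their members differed by a median of 1.71-fold. The 106 pairs at 10 to 50 kb had r -0.0120 and differed by 2.18-fold, and the 128 over 50 kb had r 0.0196 and differed by 2.44-fold. The nearest class rests on few pairs, and the difference between classes was not tested. Without the pairs of chromosome 6 between 25 and 34 Mb, r was 0.438 over 25. It was 0.360 without the pair with both members called, and 0.311 without the 2 pairs whose first member was most extreme. With members from different libraries these values fell to 0.237, 0.175 and 0.130 on average, in the same order. The lowest values over the library pairs were 0.0807, -0.0446 and -0.128. With at least 5 barcodes on both members r was 0.358 over 15 pairs, and 0.238 with members from different libraries. Adjacent pairs under 10 kb in which not both members were dense had r -0.104 over 73.

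**Figure D4:**
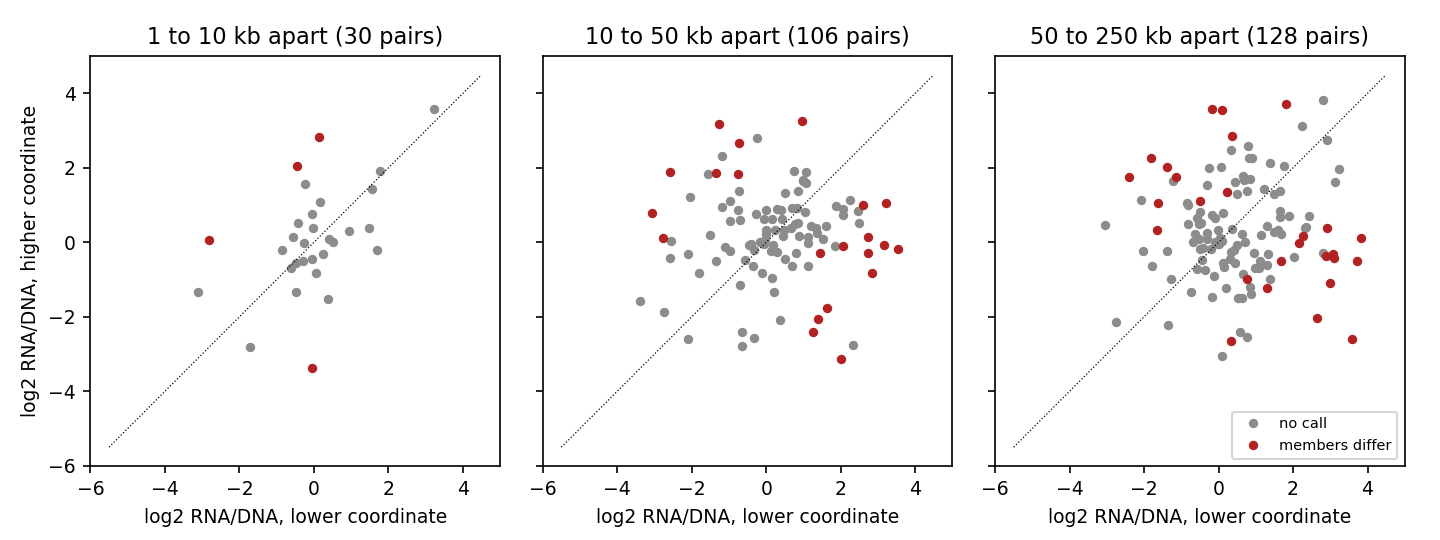
edgeR log2 RNA/DNA of the member at the lower coordinate (x) and the higher coordinate (y) of each adjacent dense pair, for 30 pairs under 10 kb, 106 at 10 to 50 kb and 128 over 50 kb apart (red, members differ in limma). Points of the nearest class lean along the diagonal (r 0.498), and the other classes show no slope (r -0.0120 and 0.0196).

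A wider view gave little more. For the 433 dense elements with at least 3 counted neighbours, their own log2 ratio and the mean of those neighbours had Pearson r 0.0925 and rank correlation 0.0852, with neighbourhoods that overlap. Around the 41 of these that were called, 21 of 260 neighbours (8.08%) were above the centre in edgeR's test. Around those that were not called, 196 of 2544 neighbours (7.70%) were. Called and uncalled dense elements thus had called neighbours at about the same share.

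Whether the members of a pair differed was tested with limma on the difference of their log2 ratios in each RNA library, over all 1216 adjacent pairs. Of these, 20.8% differed at a Benjamini-Hochberg adjusted p of 0.05. Among the dense pairs 52 of 264 (19.7%) did, against 201 of 952 (21.1%) of the others, so dense pairs differed about as often as other pairs. At an unadjusted p of 0.05, 91 dense pairs differed, or 34.5%, the same share as over all pairs. This test sees the spread between RNA libraries but not that of the DNA library or of the barcodes. The 52 fell to 21, 2 and 13 without RNA replicate 1, 2 and 3, where 9.05%, 1.48% and 5.35% of all pairs differed. They fell to 11 with barcodes of 1 to 4 RNA counts given 0 (4.19% of all pairs), while a pseudocount of 5 gave 86 (31.2%).

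The 52 differing pairs were 2.77-fold to 65.8-fold apart, with a median of 9.22-fold. Some lower members had RNA counts near 0, such as 2, 4 and 4 at chr14:24025399 and 0, 2 and 2 at chr12:49259523. Folds of such pairs are poorly placed, so the upper end and the median are not firm sizes. How many of the 52 had such a member was not counted. In 29 of them 1 member was called above the centre by edgeR and in 23 neither was, while pairs with both called gave 0. The 3 libraries of the members did not overlap in 50 of the 52. Over all 264 dense pairs they did not overlap in 111 (42.0%), against 39.5% of the other adjacent pairs and 20.8% called. By distance, 4 of 30 (13.3%) differed under 10 kb, 21 of 106 (19.8%) at 10 to 50 kb and 27 of 128 (21.1%) over 50 kb.

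The lowest p was that of the chromosome 7 pair whose barcodes are printed above, 61426 bp apart, at 7.98 ± 3.40 against 0.467 ± 0.132. The difference was 4.03 ± 0.48 on the log2 scale (SE; adjusted p = 5.4e-05, limma). On chromosome 1, 83756 bp apart, chr1:28157215 stood at 13.2 ± 1.33 and chr1:28240971-28241168, with 17 barcodes, at 0.173, 0.737 and 1.19 (0.700 ± 0.509). This difference was 4.60 ± 0.58 on the log2 scale (adjusted p = 8.5e-05, limma). In both pairs the libraries of the members lay far apart, and both members had at least 6 barcodes.

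In the next 6 pairs the lower member had 2 to 5 barcodes. On chromosome 6, 10890 bp apart, chr6:42847563-42847760, with 16 barcodes, had ratios of 5.77, 8.20 and 7.60 (7.19 ± 1.27). Its neighbour chr6:42858453-42858650, with 3 barcodes, had RNA counts of 21, 0 and 1. On chromosome 12, chr12:120875834-120876031 had 4.62, 5.57 and 4.34 (4.84 ± 0.641), and chr12:120765519-120765716, with 3 barcodes, had RNA counts of 0, 14 and 1. The lower members here were uneven between libraries. Also on chromosome 12, chr12:49412466-49412663, with 29 barcodes, had 3.18, 4.14 and 2.76 (3.36 ± 0.704) beside RNA counts of 0, 2 and 2 at chr12:49259523-49259720. On chromosome 14, chr14:23938805 at 11.9 ± 1.13 stood beside RNA counts of 2, 4 and 4 at chr14:24025399-24025596. On chromosome 17, chr17:40714100-40714297, with 55 barcodes, had 3.16, 2.81 and 4.19 (3.39 ± 0.714) beside RNA counts of 24, 6 and 4 at chr17:40575132-40575329. On chromosome 1, chr1:161123718-161123915, with 33 barcodes, had 2.70, 2.73 and 2.38 (2.60 ± 0.193) beside RNA counts of 2, 2 and 1 at chr1:161136149-161136346, 12431 bp away. In all 8 pairs 1 member was called above the centre and the libraries of the members did not overlap.

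Of the dense pairs under 10 kb, 4 differed, and not all of them had a called member. The pair with the least distance, chr11:65381607 and chr11:65383170, stood at 1.11 ± 0.541 and 7.05 ± 0.274 (adjusted p = 0.0053, limma). Libraries of the first lay between 0.764 and 1.73 and those of the second between 6.87 and 7.36, with no overlap. At 6530 bp, chr1:153599932-153600129 had 0.489, 0.307 and 1.39, and chr1:153606462-153606659 had 3.57, 5.66 and 3.30 (adjusted p = 0.0113, limma). At 9693 bp, chr11:62599429-62599626 had 0.967 ± 0.178, and chr11:62609122-62609319, with 3 barcodes, RNA counts of 1, 3 and 1. At 8170 bp, chr6:26189229 and chr6:26197399 had the 0.141 ± 0.0566 and 1.05 ± 0.155 given above. The first of these pairs set an element far above the centre beside one near it. In the pair at 9693 bp and in the last, neither member was called above the centre. The RNA counts of their lower members, chr11:62609122 and chr6:26189229, are too few to place the ratio.

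The 6 dense pairs with both members called were spread over 5 chromosomes. The nearest, 8801 bp apart on chromosome 19, joined chr19:49990778-49990975 at 11, 10.7 and 6.76 (9.47 ± 2.35, 2 barcodes) and chr19:49999579-49999776 at 12.2, 11.5 and 12.2 (11.9 ± 0.421, 3 barcodes). The first of these had 81.0% of its RNA counts on 1 barcode and a ratio of 2.92 without it. It was not called without RNA replicate 1, 2 or 3 (adjusted p = 0.110, 0.21 and 0.0785, edgeR). Also on chromosome 19, 79805 bp apart, chr19:58898551-58898748 at 5.61, 3.56 and 5.15 (4.77 ± 1.08) stood beside chr19:58978356 at 8.80 ± 1.18. On chromosome 6, 71191 bp apart, chr6:33168568 at 7.50 ± 0.280 stood beside chr6:33239759-33239956 at 7.09, 7.26 and 5.74 (6.70 ± 0.831). In all of these both members were at least 3-fold over the centre in each library. On chromosome 11, 96454 bp apart, chr11:65383170 at 7.05 stood beside chr11:65479624 at 14.3. On chromosome 17, 211297 bp apart, chr17:40714100 at 3.39 ± 0.714 stood beside chr17:40925397-40925594 at 5.07, 3.35 and 4.05 (4.16 ± 0.865). On chromosome 1, 108089 bp apart, chr1:161015629-161015826 at 2.24, 4.39 and 2.76 (3.13 ± 1.12) stood beside chr1:161123718 at 2.60 ± 0.193. Neither of the latter pair was called without RNA replicate 2 (adjusted p = 0.311 and 0.0591, edgeR). With barcodes of 1 to 4 RNA counts given 0, only the chromosome 11 pair kept both calls (adjusted p = 0.00577 and 0.00297, edgeR). Then chr6:33168568 and chr19:58978356 kept theirs but chr6:33239759 and chr19:58898551 did not (adjusted p = 0.0673 and 0.119, edgeR). The remaining pairs lost both calls. The members of these 6 pairs passed no test of difference in limma, with adjusted p from 0.199 to 0.829.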

How the data were processed

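The authors deposited whole-number counts per barcode for 1 plasmid DNA library and 3 RNA libraries, with a table that pairs barcodes with elements; per the submitters' processing notes coordinates are on hg19. The aligner, the barcode matching and the filter that made the count table were not stated in the sources used here. Every counted element had at least 2 barcodes and 10 DNA counts. Barcode counts were added up by element and fitted over all 3378 elements with edgeR 4.0.16 (TMM, quasi-likelihood test of RNA against DNA, Benjamini-Hochberg at 0.05); TMM factors were 1.47 for DNA and 0.870 to 0.895 for RNA. With 1 DNA library the spread is that of the RNA libraries. Levels per library used log2((RNA + 0.5)/(DNA + 0.5)), and adjacent pairs were tested with limma 3.58.1. Alternatives included DESeq2 1.42.0, other windows and filters, and each RNA library left out.

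Elements were named by rule: the 12 highest called with at least 5 barcodes, the 6 lowest with at least 20, the 6 with the most neighbours, the 6 loci with the most dense elements with their called elements, all pairs with both members called, and the 8 pairs with the lowest p. Others are named for their values. The members, lists and classes were chosen with earlier results of these data known. Element sequences and gene names are not used here.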

Additional observations from a re-analysis of the deposited data

How the results depend on the processing

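The count of 48 dense elements above the centre (10.3%, against 8.88% of all elements) became 29 with library totals only, against 5% of all. With these totals 4 dense elements were below, given without the share over all elements. The count above was 18 with barcodes of 1 to 4 RNA counts given 0 (3.4% of all). It was 73 with DESeq2's Wald test (12.4% of all), where 202 of 466 were without an adjusted p. It was 16 of 165 (9.70%) with a 100000 bp window and 95 of 872 (10.9%) with 500000 bp, against 8.88% of all. Without RNA replicate 1, 2 and 3 the count above was 52, 34 and 37 (11.2%, 7.30% and 7.94%). The shares of all elements were then 8.56%, 5.71% and 6.45%. The dense minus other isolated difference of 0.0745 was 0.138 with low RNA counts at 0, 0.123 without chromosome 6 from 25 to 34 Mb, 0.0337 at 500000 bp, 0.0104 with neighbours from the count table and reversed to -0.165 at 100000 bp; it ranged from 0.0689 to 0.0855 with a library left out. The slope of 0.0498 per doubling was 0.0859 with low RNA counts at 0, 0.0860 without the chromosome 6 region, 0.0781 at 100000 bp, 0.0650 with barcodes and DNA depth as covariates, 0.0398 with a pseudocount of 5 and 0.0386 with the count table. It reversed to -0.290 in dense elements only and -0.0871 in those outside the chromosome 6 region, both chosen after seeing the data, and ranged from 0.0464 to 0.0544 with a library left out. The correlation of adjacent dense elements of 0.0653 was 0.213 with at least 5 barcodes, 0.280 with at least 10, 0.110 with at least 50 DNA counts, 0.173 with each element once, 0.176 at 100000 bp, 0.117 with the count table, 0.0294 without the chromosome 6 region and reversed to -0.0131 at 500000 bp; it ranged from 0.00352 to 0.0854 with a library left out. The 52 differing pairs were 11 with low RNA counts at 0, 86 with a pseudocount of 5, 14 of 70 at 100000 bp and 132 of 562 at 500000 bp, and 2 to 21 with a library left out. The causes were not tested. Removing chromosome means, also chosen after seeing the data, gave 0.0634 for the difference and 0.0532 for the slope. Of the 50 named elements none that was called changed sign under the fits run, of which the DESeq2 Wald test gave values for 40 and the filter of 5 barcodes for 39. The uncalled chr6:26197399 turned from 0.07 to -0.67 with library totals, -0.73 with low RNA counts at 0 and -0.05 without RNA replicate 1. Calls were lost by 15 with low RNA counts at 0, by 7 with library totals and by 1, 6 and 4 without RNA replicate 1, 2 and 3. Calls below were gained by 3 with library totals, 1 with low RNA counts at 0 and 1 without replicate 1. The reference with library totals is the ratio of the totals and not the centre. No paired analysis was possible because the RNA libraries were compared with 1 plasmid DNA library. With 1 DNA library, 3 RNA libraries and a median of 6 barcodes, low ratios at few RNA counts are not placed.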
